A study of Mus musculus with 30 samples.

Results

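CpGs 108, 131, 147 and 149 are 4 consecutive CpGs, of 29 in all, in an amplicon of the intergenic control region of the imprinted Dlk1-Dio3 domain of the mouse. The submitters' labels call the amplicon IG-CGI (IG-DMR), and the numbers are base positions in the amplicon reference. The 4 CpGs were chosen by their methylation levels, which were low against the other CpGs in these same libraries, so their low levels are a description and carry no test. They lie 23, 16 and 2 bases apart and span 41 of the 218 bases between the first CpG, at 55, and the last, at 273. The other 25 CpGs served as the comparison, and all 29 were read in 17 libraries. The amplicon was not placed at genome coordinates here.

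The Dlk1-Dio3 domain lies on chromosome 12 of mm10, with Dlk1 at 109452485 to 109463336, the long non-coding RNA gene Meg3 at 109540996 to 109571729 and Dio3 at 110279230 to 110281097. Imprinted genes are expressed from 1 parental copy, and the intergenic region between Dlk1 and Meg3 controls which copy expresses which genes of this domain. Normally the region carries methylation on the paternal copy and lacks it on the maternal copy, which places a CpG near the middle of the scale when both copies are read together. Zfp57 is a zinc finger protein that binds methylated imprinted regions and keeps them methylated. Dnmt1 copies methylation to the new strand after replication, and the Tet enzymes oxidise methylated cytosine. Gzf1, a zinc finger protein whose gene lies on chromosome 2 at 148679384 to 148692949, is the factor whose loss most of the knockout libraries tested.

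The libraries came from mouse embryonic stem cells (mESC), embryos, oocytes and tail tissue. Of the mESC libraries, wild type, Gzf1 knockout and Dnmt1 knockout were made in the V6.5 line, while the Tet triple knockout is a separate line. Trunks of E10.5 embryos were wild type or Gzf1 knockout. Oocytes at the MII stage gave 1 wild-type and 2 Gzf1 knockout libraries. Tail tissue came from 1 wild-type adult, 1 Gzf1 knockout adult, 1 Gzf1 knockout pup that was dead at birth and 5 animals that were heterozygous through a knockout mother and a wild-type father. The titles of these 5 name adult mice and their group label names pups, and the dead pup carries the tissue label of adult tail, so age may differ among the tail samples. In 3 further libraries the reads were aligned to a separate reporter reference, from wild-type, Zfp57 knockout and Zfp57/Gzf1 double knockout cells of the RGM reporter line. The labels do not say how many animals, clones or oocytes gave each library, and give no mouse strain.

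DNA was treated with bisulfite, which leaves methylated cytosines unchanged, then amplified by nested PCR and read as whole amplicons, so that all CpGs of a molecule stand on 1 read. The methylation level is the percentage of calls at a CpG that were methylated. The 17 libraries held 418 to 1917 reads, and the reporter libraries 163 to 351. PCR copies of a molecule cannot be recognised without molecular identifiers, so tests over reads may give p-values that are too small. Distinct patterns of calls made up 11.3% to 67.6% of the reads of a library, and 95% Wilson intervals cover counting error only. Every group except the heterozygous tails and the knockout oocytes had 1 library, so the tests between libraries compare their reads, not the conditions. Of the 10 pairs of heterozygous libraries, 6 differed at 1 or more CpGs beyond counting error and 4 only in their read patterns or calls per read, a check that PCR copies can inflate. The labels number these animals separately and they were counted as 5. The pair of knockout oocyte libraries differed at 19 CpGs. The reads of a library are pooled over its cells and both parental copies, and do not tell which cell or copy a molecule came from.

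In wild-type mESC the level was 35.6% at CpG 108, 33.0% at CpG 131, 35.7% at CpG 147 and 34.4% at CpG 149, against a mean of 37.1% over the other 25 CpGs. All 4 lay below that mean, by at most 4.12 points, and CpG 131 was the lowest of the 29. The Tet triple knockout line gave nearly the same picture, with 35.4%, 31.4%, 36.4% and 36.2% in the same order and a mean of 37.2% elsewhere. In Gzf1 knockout mESC the 4 CpGs separated from one another. Levels there were 54.5% at CpG 108 (95% interval 52.2 to 56.7), 50.8% at CpG 131 (48.5 to 53.1), 73.1% at CpG 147 (71.1 to 75.1) and 63.5% at CpG 149 (61.3 to 65.7), while the other CpGs averaged 72.0%. CpGs 108 and 131 were the lowest of all, and CpG 147 stood above the mean of the rest. Without Dnmt1 the amplicon was nearly unmethylated, at 1.19%, 0.265%, 3.71% and 0.931% against 1.02% elsewhere. CpG 131 had 2 methylated calls of 755 there, as few as CpG 72 with 2 of 751 and CpG 246 with 2 of 732, and no order can be read at this level. CpG 147, with 28 methylated calls of 754, was the highest of the 29.

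The E10.5 trunks showed the same order of the 4 CpGs in both genotypes. Wild-type trunk had 42.0% at CpG 108, 36.8% at CpG 131, 43.8% at CpG 147 and 39.0% at CpG 149, with 45.8% over the other CpGs. Gzf1 knockout trunk had 79.3%, 71.2%, 83.3% and 76.0%, with 87.3% over the others. In both trunks CpG 131 was the lowest of the 29 and CpG 149 came next.

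Wild-type oocytes carried almost no methylation, and no order could be read among the 4 CpGs there. CpG 147 had 0 methylated calls of 1139, which allows a level of up to 0.263%, and the other levels were 0.354% at CpG 108, 0.177% at CpG 131 and 0.439% at CpG 149, against 0.311% elsewhere. The 2 Gzf1 knockout oocyte libraries differed from each other. In the first, all 4 CpGs were at 99.5% to 99.9%, so that "weakly methylated" does not describe them there. The other CpGs of that library had a median of 99.7% and a mean of 95.7%, because CpG 231 alone was at 0.0708%. CpG 231 was unmethylated in 1411 of its 1412 calls, and distinct patterns of calls made up 11.3% of the 1474 reads. How many molecules gave these nearly uniform reads is not known, so they may not be independent. In the second library CpG 108 was at 99.1%, and the next 3 CpGs were at 63.7%, 64.1% and 58.4%, against a mean of 86.2% elsewhere. CpG 101, the nearest CpG before the 4, was at 99.0% in that library and CpG 157, the nearest after them, at 74.4%.

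In tail tissue all 4 CpGs lay below the mean of the other CpGs in every animal. Wild-type tail had 45.5% at CpG 108, 42.5% at CpG 131, 43.9% at CpG 147 and 45.7% at CpG 149, the 4 lowest of the 29, against 53.1% over the others. The nearest neighbours were higher, CpG 101 at 50.3% and CpG 157 at 49.8%. Gzf1 knockout tail had 75.2%, 67.8%, 79.3% and 66.8%, against 81.9%, and here CpG 149 and not CpG 131 was the lowest. The dead pup had 65.9%, 59.3%, 71.6% and 58.2%, against 77.8%, with CpG 149 again the lowest of the 4. In the dead pup CpG 101 was at 89.2%, against the 65.9% of CpG 108 next to it.

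The 5 heterozygous tails are the only group in which the spread between animals can be seen. CpG 108 measured 38.7%, 47.9%, 40.5%, 40.0% and 41.6% in animals 1 to 5, a mean of 41.7% ± 3.61 (SD, n = 5). CpG 131 measured 35.6%, 43.5%, 37.8%, 38.0% and 39.9%, a mean of 39.0% ± 2.95 (SD, n = 5). Animal 2 was the highest and animal 1 the lowest at both, as at the other 2 CpGs of the group. CpG 147 measured 40.7%, 48.5%, 41.9%, 41.9% and 42.7%, a mean of 43.2% ± 3.09 (SD, n = 5). CpG 149 measured 40.1%, 45.5%, 41.6%, 43.0% and 41.9%, a mean of 42.4% ± 2.03 (SD, n = 5). The other CpGs averaged 49.7% ± 2.79 (SD, n = 5). Set against the mean of the other CpGs of the same animal, the spread was smaller. The differences were -7.94 ± 1.13 points at CpG 108, -10.7 ± 1.22 at CpG 131, -6.52 ± 0.732 at CpG 147 and -7.25 ± 1.58 at CpG 149 (SD, n = 5). CpG 131 was the lowest of the 29 CpGs in all 5 animals.

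**Figure D1:**
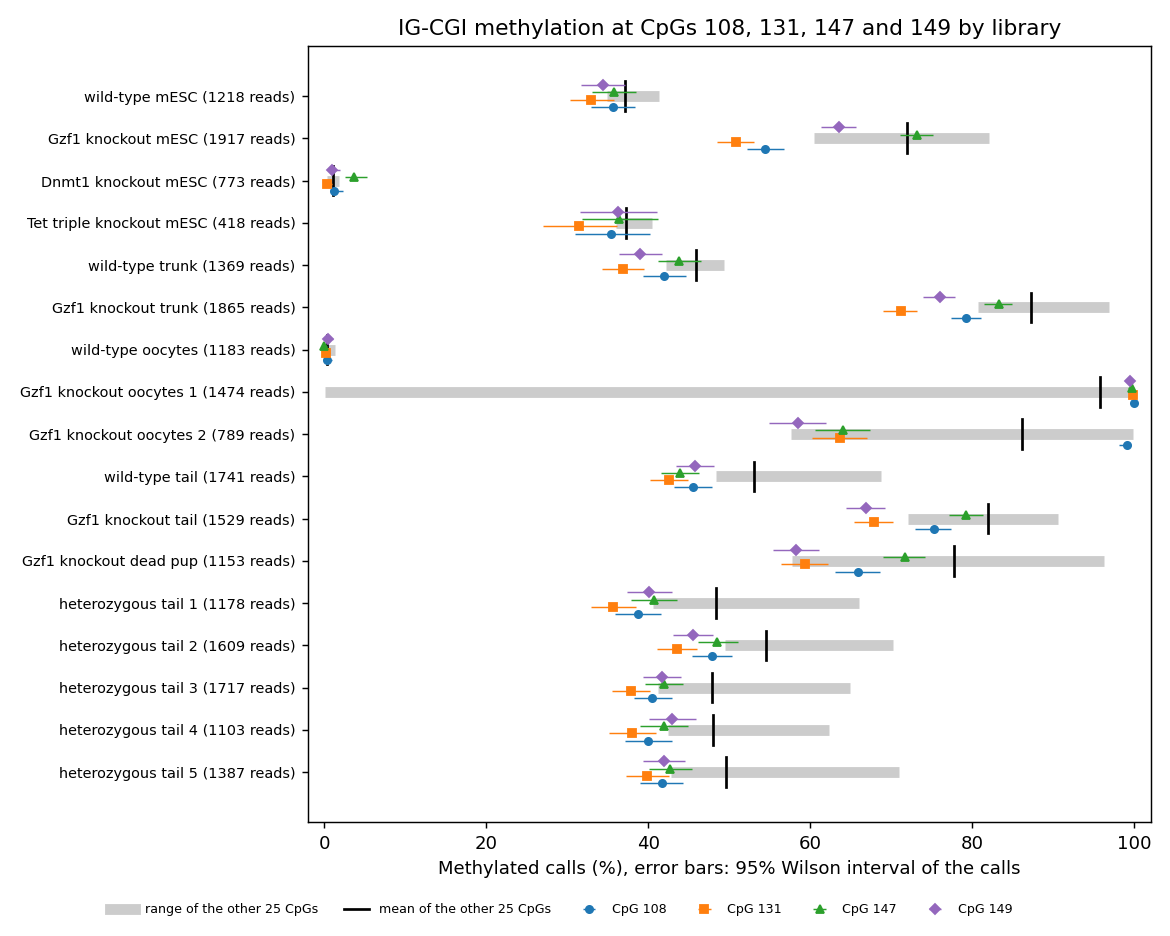
Methylation level in percent (horizontal axis) at CpG 108, CpG 131, CpG 147 and CpG 149 in each of the 17 libraries (rows), with 95% Wilson intervals. The grey bar is the range of the other 25 CpGs and the black line their mean; in wild-type tail all 4 points lie below the grey bar, and in the first knockout oocyte library all 4 lie at its upper end.

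Of the 15 libraries with a mean level of at least 10%, the mean of the 4 CpGs was below that of the others in 14, the first knockout oocyte library being the exception. All 4 were below it in 12 libraries. Counting each distinct read pattern once moved the difference between the means from -2.42 to -4.41 points in wild-type mESC, from -2.40 to -4.64 in the Tet triple knockout and from -5.44 to -8.94 in wild-type trunk. The difference between the means had a median of -8.09 points over the 17 libraries and ran from -14.8 in the second knockout oocyte library to 4.03 in the first. CpG 131 was the lowest of the 29 CpGs in 11 of the 15 libraries. In the other 4, which were both knockout oocyte libraries, the knockout tail and the dead pup, CpG 149 was the lowest of the 4. Averaged over the 17 libraries, CpG 131 lay at -10.1 points and CpG 149 at -7.79 points from the other CpGs. CpG 108 lay at -4.78 and CpG 147 at -4.32. Just outside the 4, CpG 246 lay at -5.44 and CpG 231 at -4.95, both lower than CpGs 108 and 147 by this mean. The mean of CpG 246 includes -27.5 points in the second knockout oocyte library, where CpG 108 was at 12.9. By the median over libraries CpG 108 lay at -6.67, CpG 147 at -4.02, CpG 246 at -3.13 and CpG 231 at 0.137. CpGs 246 and 231 were set against the mean of all remaining CpGs, which includes the 4 and is a different baseline. These medians therefore do not decide whether CpG 147 lay below CpG 246.

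The comparison of knockout with wild type asked how far each CpG gained methylation without Gzf1. A CpG was called changed when a two-sided Fisher's exact test gave an adjusted p under 0.05 over the 29 CpGs of the pair and the levels lay 20 points or more apart. Sequencing orders were read from a code in the submitters' naming, and that each code is 1 order is an assumption. In E10.5 trunk, where both libraries carried the same code, all 4 CpGs were called higher, as were 100% of the 29. The gain was 37.3 points at CpG 108, 34.3 at CpG 131, 39.5 at CpG 147 and 37.0 at CpG 149, against 41.4 on average elsewhere. The gain at CpG 131 was the smallest of the 29, and CpG 149 and CpG 108 were also among the 4 smallest. In adult tail, again within 1 order, all 4 were called higher and so were 100% of all CpGs. The 4 CpGs held both ends of the range there: CpG 147 gained 35.4 points, the most of the 29, and CpG 149, 2 bases away, gained 21.1 points, the least. CpG 108 gained 29.8 points and CpG 131 gained 25.3 points, against 28.8 on average elsewhere.

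In mESC 2 of the 4 CpGs were called higher, against 93.1% of all CpGs. CpG 147 gained 37.4 points and CpG 149 gained 29.1 points. CpG 108 differed by 18.9 points and CpG 131 by 17.9 points, both short of the 20 points required. The 4 CpGs were chosen for low levels in the mESC, trunk and tail libraries among others, knockouts included, so the sizes and order of their gains partly follow from that choice and are a description. CpGs 108 and 131 were the only 2 of the 29 CpGs that were not called, and the other 25 gained 34.9 points on average, with 24.6 the smallest. When each distinct read pattern was counted once, 1 of the 4 was called, and the count over all 29 was not taken. By their codes the mESC libraries came from different sequencing orders, so order and genotype cannot be told apart. The same holds for oocytes and for the dead pup against adult wild-type tail.

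In oocytes all 4 CpGs were called higher in both knockout libraries, as were 96.6% of all CpGs. CpG 108 gained 99.6 points in the first library and 98.7 in the second. CpG 131 gained 99.6 and 63.5 points, CpG 147 gained 99.7 and 64.1, and CpG 149 gained 99.1 and 58.0. The libraries thus lay far apart at 3 of the 4 CpGs and close together at CpG 108. In the dead pup, 2 of the 4 were called higher than in adult wild-type tail, against 72.4% of all CpGs. CpG 147 gained 27.7 points and CpG 108 gained 20.4, while CpG 131 differed by 16.8 points and CpG 149 by 12.5. Against the 5 heterozygous tails of its own sequencing order, CpG 147 alone of the 4 was called higher in all 5 comparisons, by 23.1 to 30.9 points, and 58.6% of all CpGs were. The adult knockout tail, the dead pup and the heterozygous tails share 1 wild-type tail library as control, and all 3 mESC knockouts share 1 wild-type mESC library.

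**Figure D2:**
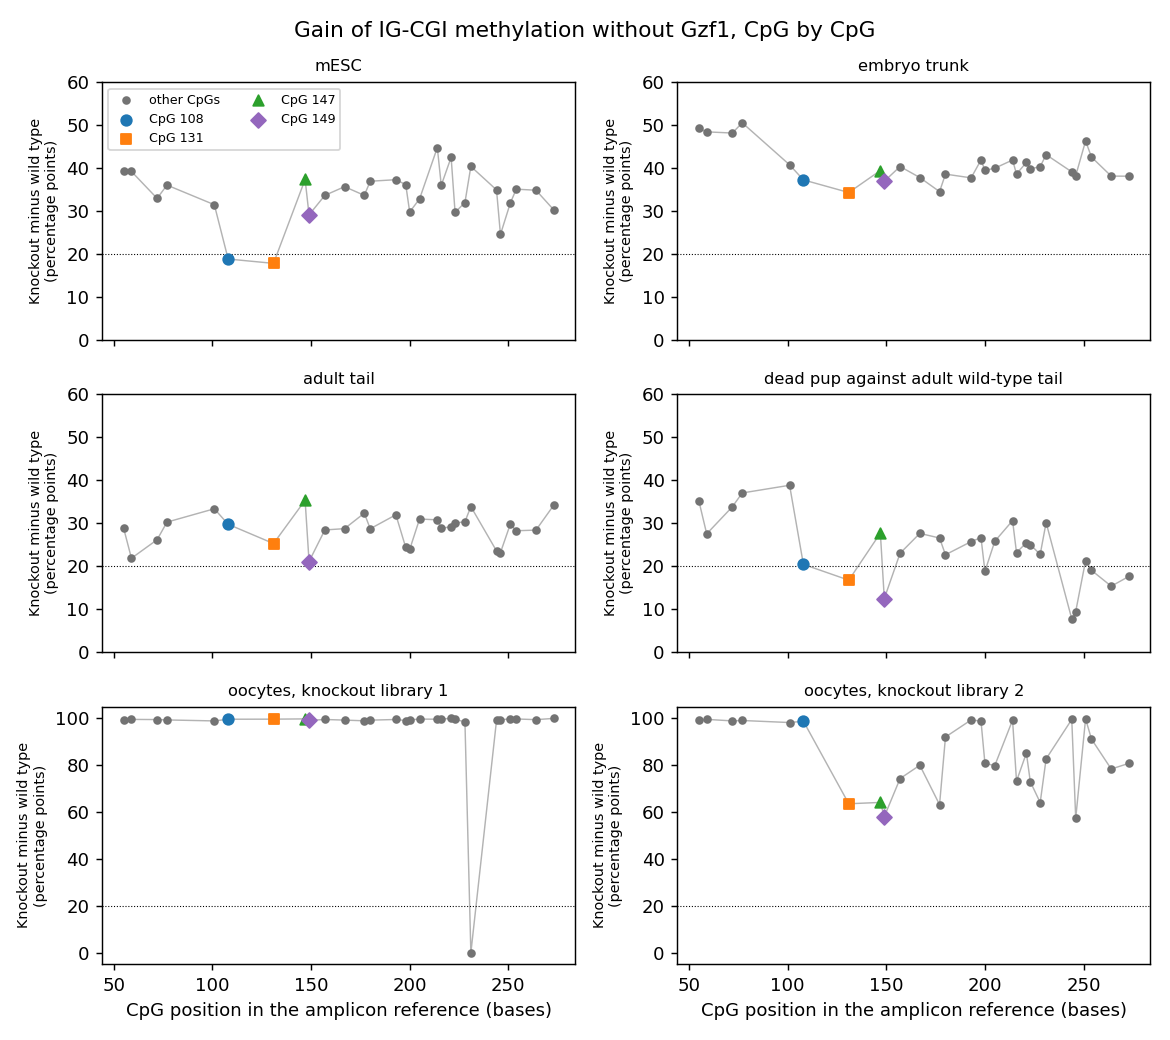
Difference in methylation level between Gzf1 knockout and wild type, in percentage points (vertical axis), at each of the 29 CpGs along the amplicon reference (horizontal axis, bases), for 6 pairs of libraries. The dotted line marks the 20 points required for a call; CpGs 108 and 131 lie under it in mESC at 18.9 and 17.9 points, and in the second knockout oocyte library the gain drops from 98.7 points at CpG 108 to 63.5 at CpG 131.

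In the Dnmt1 knockout library these positions were nearly unmethylated, as was the rest of the amplicon. All 4 CpGs were called lower than in wild-type mESC, as were 100% of all CpGs. The differences were 34.4 points at CpG 108, 32.7 at CpG 131, 32.0 at CpG 147 and 33.4 at CpG 149, close to the wild-type levels themselves. With 1 library of each, the reads are compared and not the genotypes. In the Tet triple knockout 0 of the 4 were called in either direction, 0% of all CpGs were, and 0 of the 29 had an unadjusted p under 0.05 by Fisher's exact test. The differences from wild type there were between -1.57 points at CpG 131 and 1.82 at CpG 149. In the heterozygous tails, 0 of the 4 were called in any animal and 0% of all CpGs. By Fisher's exact test 3, 1, 3, 2 and 2 of the 4 had an unadjusted p under 0.05 in animals 1 to 5. Of all 29 CpGs, 19, 2, 25, 22 and 14 did, so this was not particular to the 4. The mean over animals was below wild-type tail by 3.74 points at CpG 108, 3.57 at CpG 131, 0.767 at CpG 147 and 3.32 at CpG 149, with 4, 4, 4 and 5 of the 5 animals lower. Exact two-sided permutation tests over the 6 libraries gave p = 0.5, 0.5, 0.833 and 0.333, and 0.667, 0.667, 0.833 and 0.667 after adjustment over the 4. The smallest p this design allows is 0.167, so it could not reach the threshold. By its code the wild-type tail came from another sequencing order than these animals.

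Single reads show where the low levels lie. A read was classed by its calls at the other 25 CpGs, with at least 10 such calls, as mostly methylated at 70% or more and mostly unmethylated at 30% or less. An unmethylated call on a mostly methylated read is called a gap here. In the 15 libraries with at least 100 mostly methylated reads, the median share of gaps was 12.8% at CpG 108, 19.4% at CpG 131, 8.63% at CpG 147 and 11.7% at CpG 149. The median of the mean over the other CpGs was 5.57%. The classing did not use the 4 CpGs, but the shares follow from the levels for which they were chosen and carry no test.

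In wild-type mESC gaps stood on 13.2% of the mostly methylated reads at CpG 108, 14.7% at CpG 131, 7.14% at CpG 147 and 10.45% at CpG 149, against 5.91% on average elsewhere. In Gzf1 knockout mESC the shares were 31.0%, 32.3%, 8.998% and 18.4%, against 11.5%. So CpGs 108 and 131 carried gaps on nearly 1 methylated read in 3, and CpG 147 on fewer than the average CpG. The trunk libraries were alike in both genotypes: wild type had 13.03%, 22.1%, 8.38% and 16.9%, and Gzf1 knockout had 15.8%, 22.3%, 10.3% and 16.9%, with 5.57% and 6.02% elsewhere. Wild-type tail had 12.8%, 15.3%, 10.6% and 11.7%, against 4.89%, and Gzf1 knockout tail had 13.6%, 19.8%, 6.76% and 21.2%, against 7.07%. The dead pup had 22.5%, 28.3%, 13.4% and 27.8%, against 11.1%, and its 5 CpGs before CpG 108 were low, with a mean of 3.43%. In the heterozygous tails the shares were 12.2% ± 2.13 at CpG 108, 16.2% ± 2.76 at CpG 131, 8.43% ± 1.00 at CpG 147 and 9.50% ± 2.22 at CpG 149, against 5.15% ± 0.276 elsewhere (SD, n = 5). At CpG 131 the animals ranged from 13.4% to 19.6%.

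The mean over the other CpGs hides a difference between the sides of the amplicon. In wild-type mESC the 5 CpGs before CpG 108 averaged 13.4% gaps, more than the mean of 11.4% over the 4 CpGs, and the 20 CpGs after CpG 149 averaged 4.03%. The order was the same in the Tet triple knockout, with 12.3%, 11.2% and 2.53%, and in heterozygous tail 3, with 11.5%, 10.8% and 3.38%. In heterozygous tails 3 and 4 CpG 55, at 15.3% and 13.9%, had more gaps than CpG 131. Over the 15 libraries the mean of the 4 was above the mean of the CpGs before them in 11 and above that of the CpGs after them in 14. CpG 131 had the most gaps of the 29 in 9 libraries. In Gzf1 knockout trunk and tail, unlike their wild types, the CpGs before carried few gaps: 4.79% against 11.2% in wild-type trunk, and 3.79% against 8.91% in wild-type tail, a difference that was not tested. Gzf1 knockout mESC did not share it, with 12.8% against 13.4% in wild-type mESC.

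**Figure D3:**
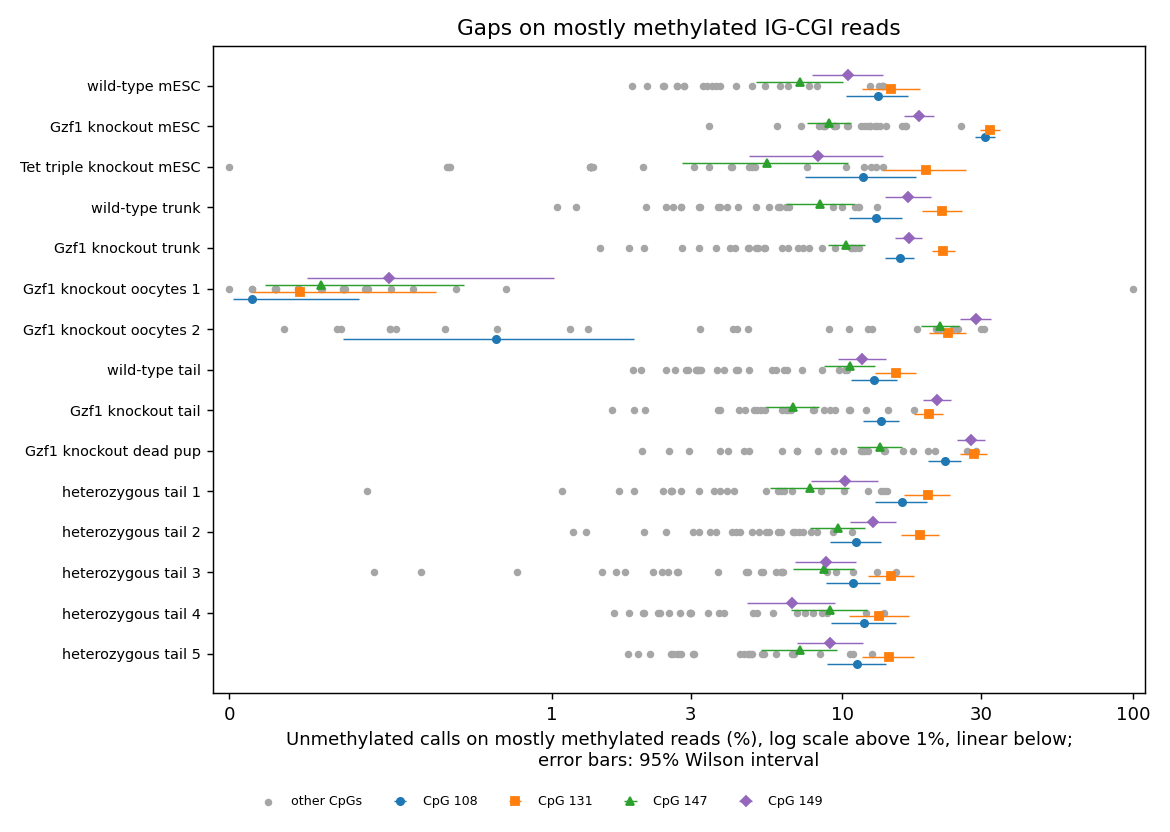
Share of unmethylated calls on mostly methylated reads, in percent (horizontal axis, logarithmic above 1% and linear below), per CpG in the 15 libraries with at least 100 such reads (rows). Grey points are the other 25 CpGs and coloured points the 4 CpGs with 95% Wilson intervals; CpG 131 lies at 32.3% in Gzf1 knockout mESC, and CpG 108 falls to 0.825% in the second knockout oocyte library while the other 3 are at 21.7% to 28.9%.

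On mostly unmethylated reads the 4 CpGs were level with the others in wild-type mESC and trunk, and lower than the others in wild-type and heterozygous tail. Their mean level on such reads was 2.23% in wild-type mESC, against 2.17% elsewhere, and 4.24% in wild-type trunk, against 4.17%. In wild-type tail it was 3.41%, against 8.91%, and in the heterozygous tails it was 3.52% to 5.00%, against 8.54% to 10.7%. In Gzf1 knockout trunk the 4 CpGs were instead higher on such reads, at 24.5% against 19.6%, over 84 reads, and in Gzf1 knockout mESC lower, at 4.45% against 8.55%. Reads between the classes made up 8.86% to 12.2% of the classed reads in the heterozygous tails. The 4 CpGs averaged 17.2% to 27.1% on these and the others 44.7% to 47.4%, and in wild-type tail the values were 22.0% and 47.7%. In these tails the 4 CpGs were thus below the mean of the others in all 3 classes of reads. That mean includes CpG 59, the highest of the other CpGs at 68.7% in wild-type tail and 62.3% to 70.9% in the heterozygous tails. The classes were not examined without it, so the contrast is not shown to be particular to the 4. In wild-type trunk the values on reads between the classes were 32.5% and 52.6%, and in wild-type mESC, over 35 reads, 53.0% and 53.2%.

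Whether gaps at these CpGs fall on the same reads was not used to choose them, and was tested. For each of the 406 pairs of CpGs in a library, reads mostly methylated at the other 27 CpGs were sorted by gap or no gap at either CpG. A pair was called together when a two-sided Fisher's exact test gave an adjusted p under 0.05 over the 406 pairs and the odds ratio, with 0.5 added to each count, was above 1. The 6 pairs among the 4 CpGs gave 90 tests over 15 libraries, of which 78 were called together and 0 apart. Whether a pair is called depends partly on how many gaps it holds. The mean share of gaps had a median of 13.02% for the 4 CpGs, chosen for low levels, and 5.57% for the others. Their higher rate of calls than that of all pairs may thus partly follow from that choice. All 6 pairs were called in 11 libraries. In those, the share of all pairs called together was 22.2% in wild-type mESC, 22.2% in wild-type trunk, 39.9% in Gzf1 knockout trunk, 38.2% in wild-type tail, 55.2% in Gzf1 knockout tail and 57.1% in the dead pup. In the heterozygous tails it was 21.4%, 36.5%, 27.8%, 29.1% and 33.3% in animals 1 to 5. Gaps at other neighbouring CpGs were also shared in many cases, so the pairs were also set beside the 122 pairs of other CpGs that lie within 41 bases of each other. Of those 122, 34.4% were called together in wild-type mESC, 27.9% in wild-type trunk and 69.7% in Gzf1 knockout trunk. The share was 58.2% in wild-type tail, 75.4% in Gzf1 knockout tail and 73.8% in the dead pup. In heterozygous tails 1 to 5 it was 27.05%, 53.3%, 35.2%, 50% and 61.5%. Each was above the share of all pairs in the same library. In 13 libraries each of the 6 pairs had at least 1 read with both gaps. In 13 of these 13 the median odds ratio of the 6 pairs exceeded the median of those 122. In the other 2, the knockout oocyte libraries, some odds ratios rest on the added 0.5 and are not compared. The excess ranged from slight, 5.54 against 5.29 in wild-type trunk and 4.05 against 3.67 in the dead pup, to 15.3 against 4.21 in wild-type mESC. Its size was not tested. Some of the 122 ratios also rest on the added 0.5, as for CpGs 214 and 216 in the Tet triple knockout.

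In Gzf1 knockout mESC 5 of the 6 pairs were called, with 32.8% of all pairs, and the pair of CpGs 108 and 147 was not, at an odds ratio of 1.51. The Tet triple knockout, with the fewest mostly methylated reads, had 3 of 6 and 6.16% of all pairs. The second knockout oocyte library had 3 of 6, with 19.5% of all pairs, and these were the 3 pairs without CpG 108. There, gaps at CpGs 131, 147 and 149 stood together on 126 of 579 reads on which CpG 108 was methylated, and 0 reads had all 4 gaps. Distinct patterns were not counted among these 126 reads, so they may be copies of few molecules. In the same library 26 of the 406 pairs were called apart. CpGs 228 and 231, for example, had 0 reads with both gaps, 100 with a gap at CpG 228 alone and 122 at CpG 231 alone. The first knockout oocyte library had 1 of 6, with 0.493% of all pairs, and that call rested on 2 reads with both gaps.

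CpGs 147 and 149 were called together in all 15 libraries, with a median odds ratio of 45.6. In wild-type tail 53 reads had both gaps, 17 had a gap at CpG 147 alone, 26 at CpG 149 alone and 672 at neither, an odds ratio of 77.6 (adjusted p = 2.84e-44, Fisher's exact test). In the heterozygous tails the odds ratio was 97.8, 52.9, 45.6, 73.4 and 40.9 in animals 1 to 5. It was lower in Gzf1 knockout tail, at 8.62, where 198 of 1189 reads had a gap at CpG 149 alone, and in the dead pup, at 4.15. The difference between genotypes in this ratio was not tested. The amplicon has 4 other pairs at the same spacing of 2 bases. The ratio for CpGs 147 and 149 exceeded all 4 of them in 4 libraries, which were Gzf1 knockout mESC, the second knockout oocyte library, wild-type tail and heterozygous tail 2. CpGs 131 and 147 were called together in 14 libraries with a median odds ratio of 15.9, and CpGs 131 and 149 in 14 with 8.26. Both medians include the knockout oocyte libraries, of which the first had 0 reads with both gaps at either pair. Of the pairs with CpG 108, the pair with CpG 131 was called in 12 libraries, with CpG 147 in 11 and with CpG 149 in 12.

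**Figure D4:**
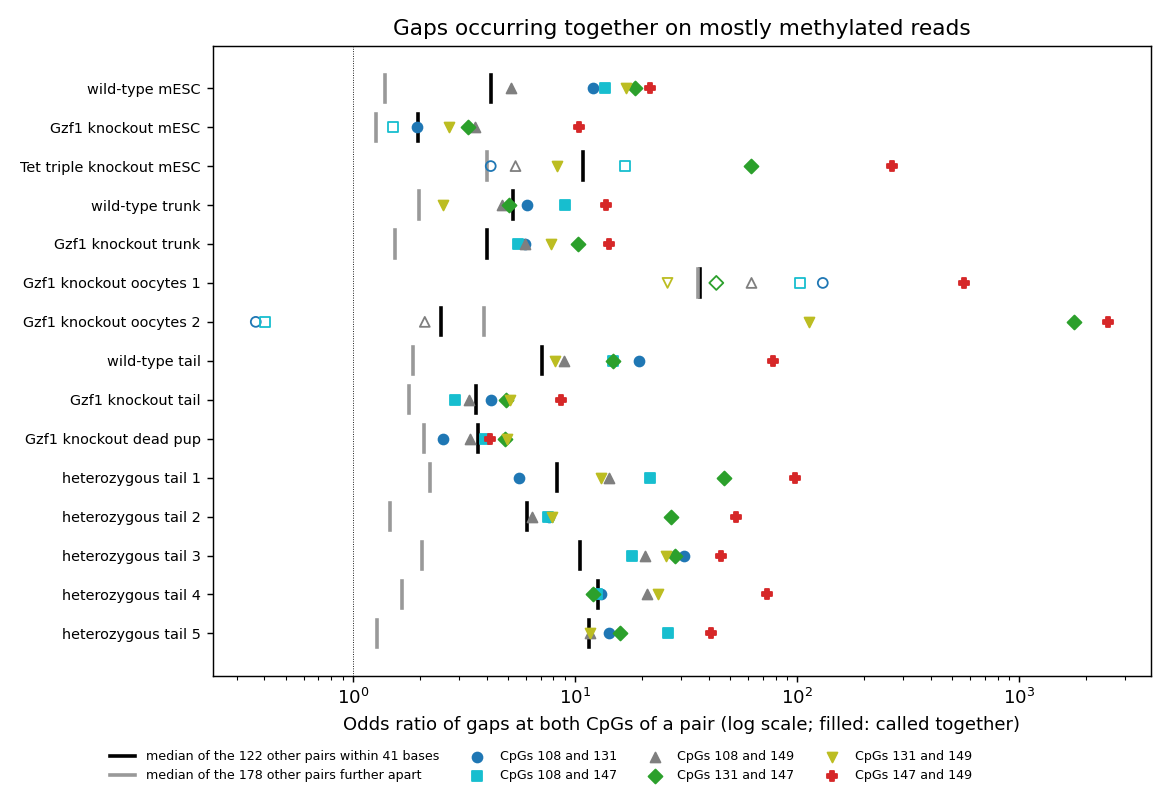
Odds ratio for gaps at both CpGs of a pair on the same mostly methylated read (horizontal axis, logarithmic) for the 6 pairs among CpGs 108, 131, 147 and 149 in 15 libraries (rows); filled symbols were called together. The black line is the median of the 122 pairs of other CpGs within 41 bases and the grey line that of the 178 pairs further apart; CpGs 147 and 149 are filled in all 15 rows. In the row of the first knockout oocyte library the open symbols have no read with both gaps and their place rests on the added 0.5.

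These counts depend on the bound for a mostly methylated read. With a bound of 90% in place of 70% for a mostly methylated read, 26 of the 90 pairs were called together, with 4.40% of all pairs, and with the pairs stratified by the number of gaps elsewhere on the read, 60 of the 90 were, with 15.02% of all pairs. A bound of 90% removes reads with several gaps.

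Reads with gaps at all 4 CpGs were 16 of 403 in wild-type mESC, 20 of 547 in wild-type trunk, 59 of 1531 in Gzf1 knockout trunk and 44 of 759 in wild-type tail. Over the 15 libraries they made up 0% to 5.80% of the mostly methylated reads, while the product of the 4 shares of gaps was at most 0.242% in any library. The observed share was above the product in 13 libraries, and in both knockout oocyte libraries no such read was seen. The product takes gaps as independent, while gaps at other neighbouring CpGs were also shared in many cases. Other runs of 4 CpGs were not examined, so the excess is not shown to be particular to these 4. The 44 reads in wild-type tail carried 39 distinct patterns, and the 20 in wild-type trunk carried 17. The 59 reads in Gzf1 knockout trunk carried 37 and the 16 in wild-type mESC carried 11. In the heterozygous tails 16 to 30 reads per animal had all 4 gaps, 3.40% to 5.19% of the mostly methylated reads.

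The gap often reached upstream of CpG 108. On the reads with all 4 gaps, CpG 101 was methylated on 18.8% in wild-type mESC, 0% of 20 reads in wild-type trunk, 16.9% in Gzf1 knockout trunk, 29.5% in wild-type tail and 10% to 26.1% in the heterozygous tails. On reads with all 4 methylated it was 94.3% to 97.3% in these libraries. CpG 157, on the other side, was methylated on 56.3%, 80.0%, 55.2%, 59.1% and 34.8% to 75.0% of the same reads. Gzf1 knockout tail had 52.6% at CpG 101, and the dead pup differed from the others, with 94.1% of its 17 such reads methylated there. Many reads instead had 1 gap of the 4. In wild-type trunk 59 reads had a gap at CpG 131 alone, 38 at CpG 149 alone, 20 at CpG 108 alone and 8 at CpG 147 alone. In Gzf1 knockout mESC 172 reads had a gap at CpG 131 alone, 159 at CpG 108 alone and 91 at both of these and neither of the others.

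The share of reads without a call was small at all 4 CpGs. The median share of reads without a call over the 17 libraries was 2.20% at CpG 108, 3.48% at CpG 131, 2.49% at CpG 147 and 2.72% at CpG 149, against a median of 3.82% for the mean of the other CpGs, which includes up to 25.95% at CpG 273. CpG 131 lay above the mean of the others in 6 of the 17 libraries, CpG 149 in 1 and CpGs 108 and 147 in 0. The highest share was 5.50%, at CpGs 131 and 149 of the Tet triple knockout. CpGs 147 and 149 tended to be missing on the same reads: in wild-type tail 42 reads lacked both, of 47 that lacked CpG 147 and 49 that lacked CpG 149.

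The reporter libraries were not used in choosing the 4 CpGs. At an offset of 16 bases, 26 of the 28 CpGs of the reporter reference matched the spacing of the IG-CGI reference, and CpGs 92, 115, 131 and 133 of the reporter reference were taken as counterparts of CpGs 108, 131, 147 and 149. In wild-type reporter cells the counterpart of CpG 108 was at 44.3% (95% interval 37.1 to 51.7), that of CpG 131 at 34.6% (27.1 to 42.9), that of CpG 147 at 42.6% (34.6 to 51.0) and that of CpG 149 at 34.6% (27.1 to 42.9). The other 24 CpGs averaged 50.9% and ranged from 40.7% to 62.8%. The 8 CpGs just after the counterparts, at 141 to 189 of the reporter reference, were at 40.7% to 44.4% with 25.8% to 28.02% of calls missing, level with the counterparts of CpGs 108 and 147. The counterparts of CpGs 131 and 149 were the lowest 2 of the 28, each with 47 methylated calls of 136, though their intervals overlap those of several other CpGs. This library held 182 reads, and a call was missing on 25.3% of reads at 3 of the counterparts and on up to 73.1% at other CpGs. On the 131 reads with calls at no less than 50% of the CpGs, the counterparts averaged 35.9% and the others 48.6%.

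In the reporter knockouts methylation was low throughout. The counterparts were at 3.75%, 4.46%, 4.46% and 5.77% in Zfp57 knockout, against 5.32% elsewhere. In Zfp57/Gzf1 double knockout the counterpart of CpG 108 had 0 methylated calls of 345, which allows a level of up to 0.870%, and the others were at 2.09%, 3.30% and 1.20%, against 3.23% elsewhere. No order could be read among the 4 at these levels.

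**Figure D5:**
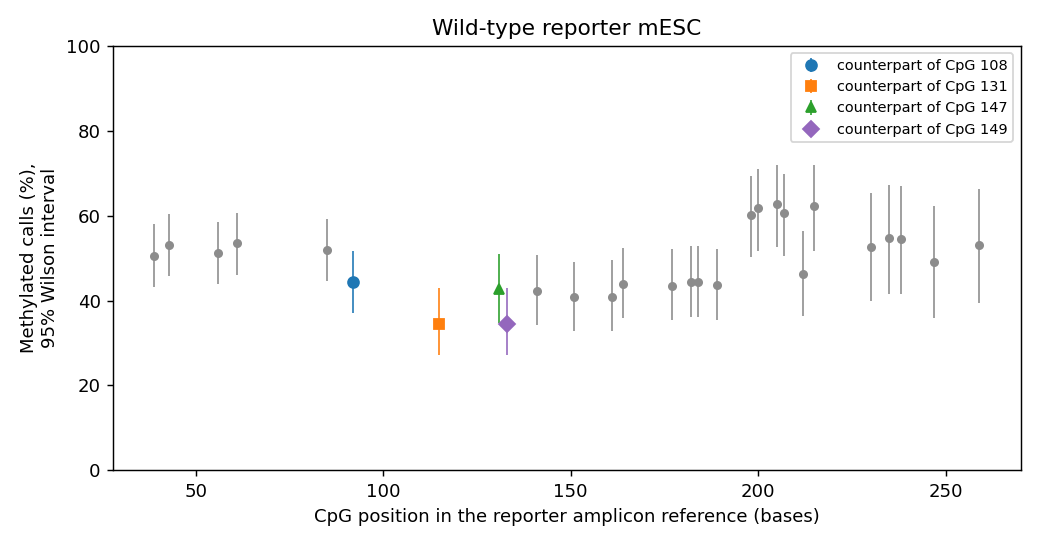
Methylation level in percent (vertical axis) at the 28 CpGs of the reporter reference in wild-type reporter mESC, along the reference (horizontal axis, bases), with 95% Wilson intervals. The counterparts of CpGs 131 and 149 are the lowest points at 34.6%, and the other 24 CpGs lie between 40.7% and 62.8%.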

How the data were processed

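The deposited files hold, per the file headers, the calls of the Bismark methylation extractor 0.22.3, 1 methylated or unmethylated call per read and CpG on the original top strand, and no score or count was added to them. Bismark 0.24.2 and mm10 are named in the submitters' processing notes, and the references in the files are amplicons. The alignment settings and filters on reads were not stated in these sources. Bisulfite does not separate methylated from hydroxymethylated cytosine. An amplicon CpG had calls in at least 10% of reads; calls elsewhere made up no more than 0.0416% in any library.

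From these calls the percent methylated per CpG was computed, with CpGs of at least 10 calls tested. Fisher's exact test (two-sided) was used between libraries and for pairs of CpGs within a library, adjusted by Benjamini-Hochberg over all CpGs or pairs, and exact permutation for the heterozygous tails. Limits for a count of 0 use 3 counts. The submitters' naming carries 8 codes among the IG-CGI libraries, and each code was taken as 1 sequencing order, which is an assumption. The functions were tested on simulated reads. Python 3.11.15, NumPy 2.4.6, SciPy 1.17.1, statsmodels 0.14.6 and matplotlib 3.10.9 were used. RefSeq gene positions (GRCm38.p6, the mm10 build) were used for coordinates.

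The 4 CpGs, the rules and the lists were chosen with earlier results of these data known. Named besides the 4 are the nearest CpG on each side (101 and 157), the 2 others with the lowest mean difference (246 and 231) and the highest and lowest animal of a range. The choice of CpGs 55, 59, 72 and 273, of the pair of CpGs 228 and 231, of the CpGs before and after the 4 as groups and of the reporter CpGs 141 to 189 followed a look at their values. Alternatives were other minimum differences, coverage and read classes, reads with calls at every CpG, identical patterns counted once, other summaries of the remaining CpGs, and leaving out replicates. A comparison of the dead pup with the heterozygous tails, and the pairs without the knockout oocytes, were added after seeing the data. The 10 libraries of other amplicons were not used.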

Additional observations from a re-analysis of the deposited data

Results flagged for a closer look

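In the 5 heterozygous tails, 20 quantities were examined for a single animal far from the rest by Dixon's ratio, and 3 stood out; chance gives about 1 in 20. The share of gaps at CpG 108 was 15.98% in animal 1, against 10.9% to 11.9% in the others. The level at CpG 147 was 48.5% in animal 2, against 40.7% to 42.7% in the others. The mean of the other 25 CpGs was 54.5% in the same animal 2, against 47.9% to 49.6%, so that CpG 147 and the rest of the amplicon were high together there.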

How the results depend on the processing

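No paired analysis was possible because the groups compared share no replicate numbers in the labels. Of the 4 CpGs, 2 were called higher in Gzf1 knockout mESC; 4 were with a minimum difference of 10 points, 1 with 30 points and 1 with identical read patterns counted once. In adult tail 1 of 4 was called at 30 points. In the dead pup, 2 were called; the count was 4 at 10 points, 0 at 30 points, 1 with identical patterns counted once and 1 against the heterozygous tails. In trunk the count was 3 with identical read patterns counted once and 4 under the others. With other minimum differences or patterns counted once, calls over all 29 CpGs were not counted. These counts therefore do not show whether the 4 differed from the rest of the amplicon. The calls in oocytes, without Dnmt1, in the Tet triple knockout and in the heterozygous tails stayed at the same number under every alternative run. The pairs called together fell from 78 to 26 of 90 with a bound of 90% for mostly methylated reads, as did all pairs, from 29.4% to 4.40%; they were 72 with identical patterns counted once, with 15.7% of all pairs. Counting identical patterns once moved the share of gaps at the 4 CpGs minus that at the others from 8.27 to 13.7 points, and the reporter difference in Zfp57/Gzf1 double knockout from -1.58 to -3.76 points; the cause was not tested. The median difference from the other CpGs was -11.5 points with identical patterns counted once and -9.68 against the nearest 5 CpGs on each side, and counting patterns once moved wild-type tail from -8.65 to -13.4, heterozygous tail 2 from -8.14 to -12.5 and heterozygous tail 4 from -7.29 to -11.3. In the first knockout oocyte library the difference of 4.03 was 0.0213 against the median of the other CpGs. Leaving out 1 replicate in turn, the median difference from the other CpGs was -8.11 to -7.77 points, the 4 oocyte calls stayed at 4, the heterozygous calls at 0, and the mean difference of the heterozygous tails from wild type ran from -4.05 (without animal 2) to -2.15 points, around -2.85. Depth limits the Tet triple knockout, with 418 reads, and the reporter libraries most.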
